A study of Mus musculus with 27 samples.

Results

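Line 1 tumors were set against tumors grown from 3 other lines of the same series, to find which genes set the tumors of one line apart from those of the others. The members were the 3 arrays labelled as tumors of line 1, the other side the 9 arrays of tumors from lines 31, 59 and 123 (3 each), so that 12 of the 27 arrays entered the comparison. One gene was represented by one probe set, the one with the highest mean over all arrays among those listed with a single gene, which gave 19937 genes. The labels give the genotype of line 1 tumors as WT, that of line 31 and line 59 tumors as p53 mutant and that of line 123 tumors as WT. All 12 tumors were subcutaneous and grew in SCID mice of the CB17/ICR-Prkdcscid/IcrCrl strain, and the 3 subcutaneous tissue samples (SubQ) carry the same host strain. The lines are immortalized neural stem cells of the mouse. Lines 31, 59 and 123 were also profiled in culture, while no culture of line 1 was analysed here. Each tumor line is a single line, so a feature of line 1 and a feature of tumors of its kind cannot be told apart.

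A subcutaneous graft holds the implanted cells together with vessels, fibroblasts and myeloid cells of the host. SCID mice lack mature T and B cells but keep macrophages, neutrophils, platelets and endothelium. Tumor cells can differ between lines in the receptors they carry, in the peptides and protease inhibitors they secrete, and in DNA copy number, which shifts the RNA of neighbouring genes together. In whole-tumor RNA, fewer cells of a type and less RNA per cell cannot be told apart.

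The deposited values are log2 expression levels, so a difference of 1 is a 2-fold difference. The 3 line 1 arrays correlated with each other at 0.963 to 0.984 across genes, and with the arrays of other lines at 0.936 to 0.963. Pairs from 2 different lines other than line 1 correlated at 0.944 to 0.975. The SubQ arrays had a narrower spread over genes (SD 0.869 to 1.02) than the tumor arrays (SD 1.63 to 1.79), so their levels are given beside those of tumors without a test. The 1194 olfactory and vomeronasal receptor genes, which most tissues do not express, had a median level of 3.66 in the tumors and a 95th percentile of 5.25. A group mean under 5.25 was taken as within the range of receptor genes. Printed values under 5.25 are to be read so also where this is not noted. Line 31 tumor 3 stood apart in myeloid genes, as described with those genes below, and line 31 had the widest spread within a line, with 200 genes ranging over more than 2 log2 units, against 78 genes in line 1.

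Of 19937 genes, 922 (4.62%) passed an adjusted p of 0.05 between line 1 tumors and the mean of the other 3 lines, with the limma fit over all 12 tumors. In line 1 tumors 465 genes were higher (2.33%) and 457 lower (2.29%), and the median difference of all genes was 0.03. These shares are the background for the counts of every gene list below. All 3 line 1 values lay above all 9 others for 540 genes (2.71%) and below all 9 for 478 genes (2.40%). Both criteria were met by 319 higher genes (1.60%) and 296 lower genes (1.48%). The same contrast gave 277 calls for line 31 (1.39%), 233 for line 59 (1.17%) and 169 for line 123 (0.848%), each against its 3 counterparts. These contrasts share the same 12 arrays. With the line as a random block, 335 genes were called, all of them among the 922. The estimated correlation within a line was 0.0668, so that fit also counts the 12 tumors as nearly independent and is no test over lines. The call count was 351 without line 1 tumor 2 and 329 without line 1 tumor 3, 1388 without line 31 tumor 3, 578 without line 59 and 522 without line 123.

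Against single lines, line 1 tumors differed in 640 genes from line 31 tumors (3.21%), in 654 from line 59 tumors (3.28%) and in 617 from line 123 tumors (3.09%). A set of 114 genes was higher in line 1 tumors than in each of the 3 lines (0.572%), and 57 genes were lower than in each (0.286%). Of the genes that differed from line 31 tumors, 338 were higher in line 1 tumors (1.70%) and 302 lower (1.51%), and of those that differed from line 59 tumors 310 were higher (1.55%) and 344 lower (1.73%). Together the genes called against each line numbered 171 (0.858%). The 3 contrasts share the line 1 arrays.

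The gene with the largest increase was Tfpi2, a secreted Kunitz-type inhibitor of serine proteases in the extracellular matrix. Tfpi2 reached 10.30, 11.33 and 11.54 in line 1 tumors, against 6.10 to 6.87 with a median of 6.66 in the 9 others. No value overlapped, and the levels of the other 3 lines lay close together. The difference was 4.45 ± 0.23 (limma estimate ± SE, adjusted p = 4.8e-07), a 21.8-fold increase. In SubQ samples Tfpi2 was at 5.01, 6.04 and 5.78. For Tfpi2, RefSeq (GRCm38.p6) lists 3 windows before a start site, and 1 of the 3 holds the AP-1 motif TGANTCA, which reads the same on both strands. That window, chr6:3968376-3968625 on the minus strand, is shown with the match in capitals because Jun, a subunit of the AP-1 factor, was also among the genes raised in line 1 tumors.
Tfpi2: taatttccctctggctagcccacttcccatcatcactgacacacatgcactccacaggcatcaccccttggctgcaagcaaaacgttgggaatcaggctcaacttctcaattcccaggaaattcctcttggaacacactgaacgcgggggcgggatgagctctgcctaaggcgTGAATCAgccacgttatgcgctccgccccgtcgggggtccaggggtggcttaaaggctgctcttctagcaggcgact
The motif was present in 9.14% of 350 genes called higher with a listed window of 250 bases, in 6.42% of 358 genes called lower and in 7.12% of all 15613 measured genes with such a window. A match is a string of letters and does not show binding. In the windows of Crhbp and Pdgfra neither this motif nor TGANNTCA was found.

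Crhbp encodes a secreted protein that binds corticotropin-releasing hormone. It stood at 7.76, 10.29 and 9.46 in line 1 tumors, against 4.82 to 5.63 with a median of 5.36 in the other tumors. The groups did not overlap, although the line 1 tumors themselves spread over more than 2 log2 units, and the difference was 3.85 ± 0.38 (adjusted p = 0.00014). SubQ samples had 6.40, 6.54 and 5.47, above most of the tumors of other lines.

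Pdgfra, the receptor tyrosine kinase for platelet-derived growth factors that marks mesenchymal cells and oligodendrocyte precursors, was at 9.85, 10.91 and 10.66 in line 1 tumors. The other tumors had 7.74 to 8.55, with a median of 8.04. These ranges were separate, and Pdgfra was higher than in each single line (adjusted p = 0.00086, 0.00043 and 0.00024 against lines 31, 59 and 123). The overall difference was 2.38 ± 0.21 (adjusted p = 6.8e-05), and the call was lost when all 27 arrays shared one fit (adjusted p = 0.065).

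Tek, the angiopoietin receptor of endothelial cells also known as Tie2, was at 9.50, 9.23 and 9.66 in line 1 tumors and at 5.40 to 5.93 in the others, with a median of 5.70. Caap1, which encodes an inhibitor of apoptosis, varied little between the line 1 tumors. Its values were 9.62, 9.67 and 9.57 in line 1 tumors, against 5.30 to 5.85 with a median of 5.60. The differences were 3.78 ± 0.14 for Tek (adjusted p = 1.4e-08) and 4.05 ± 0.13 for Caap1 (adjusted p = 6.9e-09). Tek and Caap1 in SubQ samples lay at 5.56 to 5.998 and 5.103 to 5.41. Other members of the Tie receptor axis list did not follow Tek: of 8 measured genes, Tek and Angptl4 (1.46, adjusted p = 0.0015) were higher, and the other 6 differed by -0.28 to 0.67 without passing the test.

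**Figure D1:**
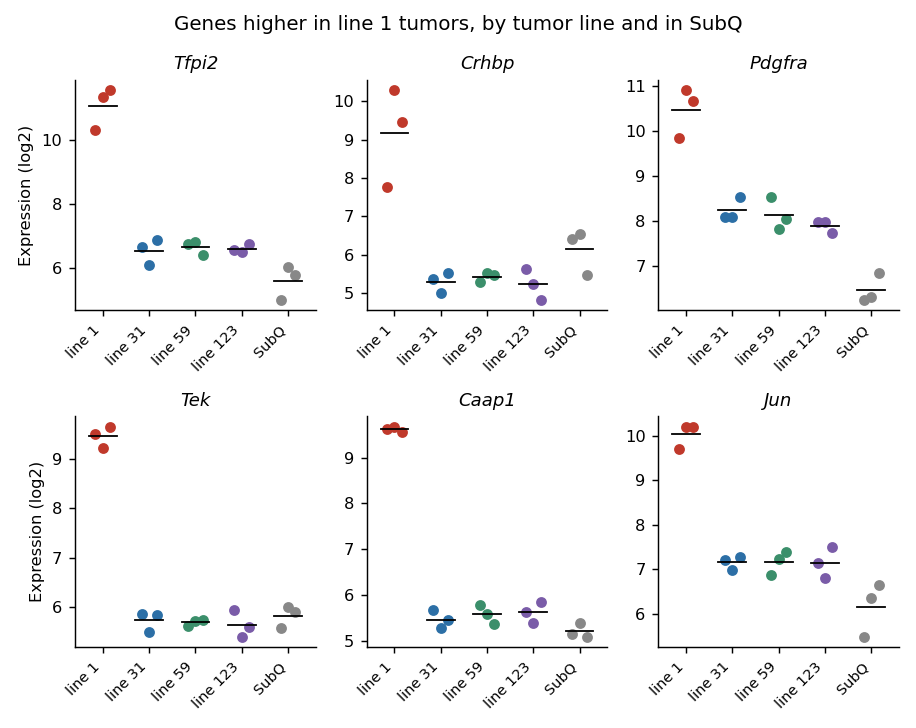
Expression (log2) of 6 genes in each tumor of lines 1, 31, 59 and 123 and in the 3 SubQ samples; points are single samples and bars are means. Line 1 tumors lie above every other tumor for all 6 genes, by 4.45 on average for Tfpi2 and 2.38 for Pdgfra, and their spread is wide for Crhbp and narrow for Caap1.

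Tek and Caap1 are neighbours on mouse chromosome 4. A run of 9 neighbouring measured genes was higher in line 1 tumors throughout, with differences of 0.91 to 4.05: Caap1, Plaa (3.32), Ift74 (3.30), Lrrc19 (3.09), Tek, Eqtn (2.38), Mysm1 (3.42), Jun and Fggy (0.91). Plaa encodes a ubiquitin-binding protein, Ift74 a component of intraflagellar transport and Mysm1 a histone H2A deubiquitinase. Of the 22 measured genes from Caap1 to Tm2d1 14 were higher and 0 lower, against 2.33% and 2.29% of all genes. The 22 genes had a median difference of 1.84. The last of them, Tm2d1, was at 10.64, 10.80 and 10.78 in line 1 tumors, against 6.73 to 7.75 with a median of 7.04 in the others (3.61 ± 0.17, adjusted p = 2.6e-07). Within the stretch, Cyp2j12 (1.80), Cyp2j11 (0.67) and Cyp2j6 (2.02), which encode cytochrome P450 epoxygenases, and Nfia (1.88), a transcription factor of glial development, were also higher. Hook1 lay between them at -0.31 and did not pass the test. Of the 20 measured genes before Caap1 0 were higher and 2 lower, with a median of -0.02, and of the 20 after Tm2d1 0 were higher and 1 lower, with a median of -0.09. Caap1 and Tm2d1, both among the 12 largest increases, were set as ends with the values known. The counts inside and outside the stretch partly follow from those ends.

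Eqtn, a gene of the sperm acrosome that is silent in most tissues, reached 6.07, 6.61 and 5.54 in line 1 tumors and 3.04 to 4.16 in the others, where all values were within the range of receptor genes. Most calls in the stretch held whichever tumor was left out, but those of Fggy and Cyp2j11 ended without line 1 tumor 2 (adjusted p = 0.098 and 0.15) and without line 1 tumor 3 (adjusted p = 0.098 and 0.11). DNA copy number of this stretch was not measured.

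**Figure D2:**
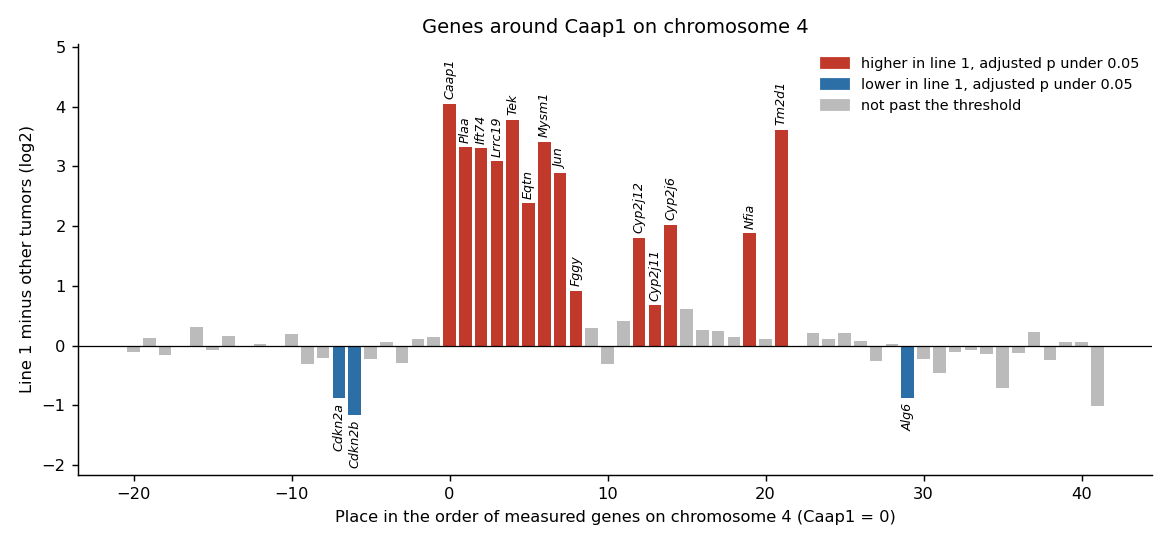
Difference in log2 expression between line 1 tumors and the mean of the other 3 tumor lines for 62 measured genes in their order on chromosome 4, from 20 genes before Caap1 to 20 after Tm2d1. Red and blue bars passed an adjusted p of 0.05. The 14 red bars all lie between Caap1 and Tm2d1, ends that were set with the values known. Cdkn2a and Cdkn2b stand just before the stretch with negative differences.

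The tumor suppressor genes Cdkn2b and Cdkn2a sit 6 and 7 measured genes before Caap1, and both were lower in line 1 tumors. Cdkn2a, which encodes p16 and p19Arf, was at 5.32, 4.999 and 5.11 in line 1 tumors, against 5.85 to 6.40 with a median of 5.97 (-0.88 ± 0.12, adjusted p = 0.0016). Cdkn2b, which encodes the cyclin-dependent kinase inhibitor p15, was at 6.38, 6.46 and 6.16, against 6.83 to 8.28 with a median of 7.63 (-1.16 ± 0.18, adjusted p = 0.0041). Neither gene overlapped between the groups. Mtap, the next gene, had 8.37, 8.66 and 8.39 in line 1 tumors and 8.25 to 9.14 in the others, a difference of -0.20 that did not pass the test (adjusted p = 0.52). The line 1 mean of Cdkn2a lay within the range of receptor genes.

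Jun, the immediate early transcription factor that pairs with Fos proteins to form AP-1, had 9.71, 10.19 and 10.20 in line 1 tumors, against 6.80 to 7.49 with a median of 7.21 (2.88 ± 0.17, adjusted p = 1.1e-06). It was raised to a similar degree against lines 31, 59 and 123, by 2.88, 2.88 and 2.89. Among 10 measured AP-1 genes, a list drawn up after the values had been seen, Jun alone passed the test, and the other 9 differed by -0.26 to 0.22. The 250 bases before the start of Jun, chr4:95052223-95052472 on the minus strand (RefSeq, GRCm38.p6), are shown because Jun is known to act on its own promoter through an AP-1-like site. Capitals mark a match to TGANNTCA, a motif held by 11.7% of all genes with a window and 10.6% of those called higher.
Jun: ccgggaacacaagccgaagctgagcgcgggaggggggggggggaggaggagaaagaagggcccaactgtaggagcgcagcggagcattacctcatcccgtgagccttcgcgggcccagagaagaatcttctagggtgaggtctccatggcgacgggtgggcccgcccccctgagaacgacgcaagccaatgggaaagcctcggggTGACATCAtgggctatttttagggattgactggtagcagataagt

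Secreted peptides and their binding proteins were another group with several raised members. Of 22 measured genes in the list of peptide hormones, binding proteins and receptors, 7 were higher in line 1 tumors and 0 lower, with a median of 0.31 against 0.03 for all genes. The share of higher genes among all genes was 2.33%. The count of higher list members was 4 without line 1 tumor 2 or tumor 3, and 3 with the line as a random block. Gal, which encodes the neuropeptide galanin, was at 5.41, 8.33 and 8.70 in line 1 tumors, against 3.86 to 5.02 with a median of 4.19. The other lines thus lay within the range of receptor genes, and line 1 tumor 1 was far below the other line 1 tumors but still above all 9 others (3.21 ± 0.52, adjusted p = 0.0045). Igfbp5 (1.96, adjusted p = 0.0014) and Igfbp4 (1.40, adjusted p = 0.025), which bind insulin-like growth factors, were also higher, with overlap between the groups. The call of Igfbp4 ended without line 1 tumor 2 or tumor 3 (adjusted p = 0.15 and 0.14). Ednrb, an endothelin receptor of the neural crest, was higher by 1.00 (adjusted p = 0.011), with 7.42, 6.84 and 6.51 in line 1 tumors and 5.52 to 6.23 in the others. Crhbp, Gal, Igfbp5, Igfbp4 and Ptges, described below, had their lowest line 1 value in tumor 1. So did other raised genes such as Tfpi2, Pdgfra and Jun, while Ednrb had its highest there.

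The largest decreases among called genes with separate ranges fell on genes with different roles. Kcnma1 and Stmn2, described below, had larger decreases with overlapping ranges. Plscr2, a phospholipid scramblase, was at 6.22, 4.99 and 4.91 in line 1 tumors, against 7.20 to 8.63 with a median of 8.26 (-2.79 ± 0.32, adjusted p = 0.00044). Cldn1, a tight junction protein of epithelia, was at 4.83, 4.59 and 4.48, against 5.21 to 8.40 with a median of 7.16 (-2.46 ± 0.34, adjusted p = 0.0016). Timp3, an inhibitor of matrix metalloproteinases, was at 7.52, 6.50 and 6.72, against 8.04 to 11.34 with a median of 9.20 (-2.42 ± 0.55, adjusted p = 0.026). Each of these genes was lower in all 3 line 1 tumors than in all others. The call of Timp3 ended without line 1 tumor 2 or tumor 3 (adjusted p = 0.13 each), without line 59 (0.068) and with the line as a random block (0.072). Against single lines Timp3 passed for line 31 (adjusted p = 0.028) but not for line 59 or line 123 (adjusted p = 0.11 and 0.16).

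Ankrd1, a muscle ankyrin repeat protein and known target of the YAP coactivator, was at 6.23, 5.60 and 7.20 in line 1 tumors, against 7.60 to 9.35 with a median of 8.84 (-2.26 ± 0.33, adjusted p = 0.0026). Apobec3, a cytidine deaminase that restricts retroviruses, was at 5.57, 5.40 and 5.06, against 6.81 to 8.22 with a median of 7.42 (-2.12 ± 0.24, adjusted p = 0.00048). The other probe set of Apobec3 gave -1.31. Map2, the microtubule-associated protein of dendrites, was at 5.59, 5.82 and 5.31, against 6.76 to 8.45 with a median of 7.41 (-2.05 ± 0.29, adjusted p = 0.002). C1ql3, a secreted synaptic protein, was lower by 2.06 (adjusted p = 0.00092) with separate ranges, at 5.16 to 6.08 in line 1 tumors and 6.30 to 8.30 in the others.

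A further 4 of the 12 largest decreases with separate ranges had line 1 means within the range of receptor genes, as did Cldn1. These were Gabre (-2.46, adjusted p = 0.0061), a subunit of the GABA-A receptor, Dynap (-2.27, adjusted p = 0.01), Kcnip1 (-2.15, adjusted p = 0.0018), which binds A-type potassium channels, and Penk (-2.04, adjusted p = 0.00013), the precursor of enkephalins. The call of Dynap ended without line 1 tumor 3 (adjusted p = 0.058). That of Gabre ended with the line as a random block (adjusted p = 0.059) and without line 59 (0.055), and that of Penk with the line as a random block (0.071) and with 2 groups and no line term (0.056). Trim12a, a tripartite motif protein named after its values had been seen, was at 3.61, 3.99 and 3.80 in line 1 tumors and at 5.31 to 6.61 in the others (-2.02 ± 0.30, adjusted p = 0.0026). The line 1 mean of Trim12a also lay within the range of receptor genes.

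Of 12 measured members of the neutrophil list 5 were higher in line 1 tumors and 0 lower, with a median of 0.48. The shares among all genes were 2.33% higher and 2.29% lower. The other 7 members differed by -0.03 to 0.63, and 1 of the 12 passed against line 31 alone. With the line as a random block 2 members were called higher. S100a9, a calcium-binding alarmin of neutrophils, was at 8.68, 9.05 and 8.13 in line 1 tumors. Line 31 tumors had 5.43, 5.45 and 9.19, line 59 tumors 4.65, 4.92 and 4.78, and line 123 tumors 5.31, 4.85 and 5.12. Line 31 tumor 3 was thus as high as the line 1 tumors, and the other 8 tumors were all lower than line 1. Cxcr2, the neutrophil chemokine receptor, showed the same layout, with 7.35, 8.09 and 7.03 in line 1 tumors, 7.72 in line 31 tumor 3 and 3.58 to 4.63 in the remaining 8. Those 8 values lay within the range of receptor genes.

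The difference was 3.10 for S100a9 (adjusted p = 0.013), 2.99 for Cxcr2 (adjusted p = 0.01) and 2.38 for S100a8 (adjusted p = 0.011). Without line 31 tumor 3 these were 3.52, 3.36 and 2.66 (adjusted p = 3.6e-07, 2.9e-06 and 1.9e-05), and 6 of the 12 list members were higher. The count was 1 when line 59 or line 123 was left out whole. Without line 1 tumor 2 the list had 1 call and these 3 ended (adjusted p = 0.081, 0.071 and 0.067). Between line 1 and line 31 tumors alone, none of the 3 genes passed the test (adjusted p = 0.21, 0.15 and 0.28). Retnlg, a resistin-like protein of neutrophils, did not share the high value of line 31 tumor 3: it was at 6.66, 5.58 and 5.69 in line 1 tumors and at 4.24 to 5.004 in the others (1.36 ± 0.24, adjusted p = 0.0069). The mean level over the neutrophil list was 5.65 to 5.85 in line 1 tumors, 5.68 in line 31 tumor 3 and 4.36 to 4.80 in the remaining tumors.

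Chemokines that act on Cxcr2 followed a similar order. Ppbp, the platelet basic protein also known as Cxcl7, was at 8.07, 7.74 and 8.04 in line 1 tumors, against 3.998 to 6.77 with a median of 4.46, and the highest of the others was line 31 tumor 3 (3.18 ± 0.40, adjusted p = 0.00093). For Ppbp the mean of the other lines (4.77) lay within the range of receptor genes. Cxcl3, named after its values had been seen, was at 6.82, 8.07 and 7.37, against 4.45 to 6.22 with a median of 4.96 (2.41 ± 0.32, adjusted p = 0.0014). Cxcl1 was at 7.74, 8.48 and 7.72, against 6.03 to 7.56 with a median of 6.47 (1.38 ± 0.19, adjusted p = 0.0018). All 3 genes were higher in every line 1 tumor than in every other tumor. Cxcl2 overlapped through line 31 tumor 3, at 6.50, 7.90 and 6.42 in line 1 tumors and 6.90 in that tumor, and its call (2.48, adjusted p = 0.012) ended without line 1 tumor 2 (adjusted p = 0.085). Pf4, platelet factor 4, was higher by 2.04 (adjusted p = 0.024), with 8.40 in line 31 tumor 3 and 8.01, 7.92 and 8.28 in line 1 tumors, and its call ended without any one of the 3 line 1 tumors (adjusted p up to 0.13).

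Platelet receptor genes did not share the rise of the platelet chemokines. In a list of 6 measured platelet and megakaryocyte genes, chosen after the values had been seen, Ppbp and Pf4 were higher, and the other 4 differed by 0.08 to 0.15. Of 29 measured genes in the chemokine and cytokine list, 2 were higher (Cxcl1 and Cxcl2), 1 was lower and the median was 0.15. That list does not hold Ppbp, Cxcl3 or Pf4. The one lower member was Cxcl16, a transmembrane chemokine, at 6.20, 6.22 and 6.28 in line 1 tumors and 6.79 to 8.52 in the others (-1.40 ± 0.19, adjusted p = 0.0014). Without line 31 tumor 3, 5 members were higher and 1 lower.

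Of 19 measured members of the macrophage list 6 were lower in line 1 tumors and 0 higher, with a median of -0.62. Lower genes made up 2.29% of all genes. The other 13 members differed by -0.67 to 0.26, and 2 members were called with the line as a random block. Fcrls, a receptor-like gene of microglia and tissue macrophages, was at 4.59, 4.91 and 6.19 in line 1 tumors, against 6.44 to 7.87 with a median of 7.27 (-2.01 ± 0.30, adjusted p = 0.0029). Ly86, the partner of the toll-like receptor homolog CD180, was at 7.45, 6.52 and 6.95, against 8.15 to 9.82 with a median of 8.597 (-1.81 ± 0.26, adjusted p = 0.0024). Fcrls and Ly86 are not list members and were named after their values had been seen. Cx3cr1, the fractalkine receptor, was at 6.63, 6.48 and 7.54, against 7.74 to 9.40 with a median of 8.31 (-1.61 ± 0.30, adjusted p = 0.01).

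C1qc and C1qb, chains of complement C1q made by macrophages, were lower by 1.42 (adjusted p = 0.0083) and 1.17 (adjusted p = 0.023), with separate ranges. Adgre1, which encodes the F4/80 antigen, was lower by 0.93 (adjusted p = 0.037) with overlapping ranges. Several of these calls ended when a single tumor was left out. Those of Cx3cr1 and C1qc ended without line 1 tumor 2 (adjusted p = 0.072 and 0.06), that of C1qb without line 1 tumor 2 or tumor 3 (adjusted p up to 0.13) and that of Adgre1 without any one of 8 tumors (adjusted p up to 0.2). With single tumors left out, the count of lower macrophage genes ranged between 1 and 6. The mean level over the list was 7.61 to 7.95 in line 1 tumors, just below the 7.98 to 8.96 of the other tumors, and 5.99 to 6.34 in SubQ samples. Against line 123 tumors, limma called 0 of the 19 genes, and 6 had an unadjusted p under 0.05.

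Genes of MHC class II antigen presentation were lower as well. Of 12 measured members of the antigen presentation list 4 were lower and 0 higher, with a median of -0.28, and the 4 were all class II genes. The share of lower genes among all genes was 2.29%. Cd74, the invariant chain, was at 5.29, 6.48 and 6.09 in line 1 tumors, against 7.09 to 9.46 with a median of 8.11 (-2.33 ± 0.41, adjusted p = 0.0073). H2-Aa was at 8.09, 8.37 and 8.07, against 8.94 to 10.73 with a median of 9.95 (-1.79 ± 0.28, adjusted p = 0.0037). H2-Ab1 was at 5.998, 5.78 and 5.77, against 6.42 to 8.64 with a median of 7.39 (-1.71 ± 0.29, adjusted p = 0.0061).

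H2-Ea, named after its values had been seen, was lower by 1.61 (adjusted p = 0.001), and none of these class II genes overlapped between line 1 tumors and the others. H2-Eb1 was lower by 1.30 (adjusted p = 0.041), and its call ended without any one of 8 tumors (adjusted p up to 0.15). Against line 123 tumors alone, 0 of the 12 list members passed the test, and Cd74 and H2-Aa differed by -1.84 and -1.32 (adjusted p = 0.072 and 0.058). In the comparison with all other tumors, the call of Cd74 ended without line 59 (adjusted p = 0.058). In that comparison the 8 uncalled genes of the list differed by -0.41 to 0.11. The mean level of the macrophage list, given above, moved in the same direction, and its part in the class II difference was not tested.

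**Figure D3:**
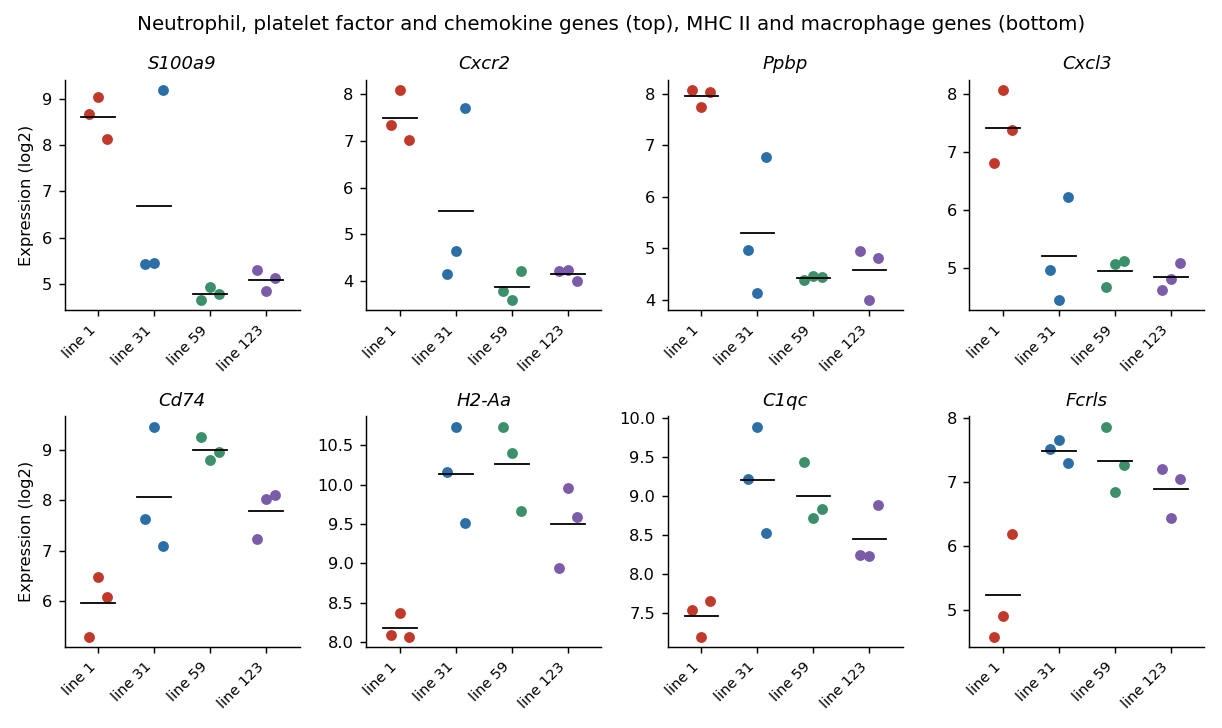
Expression (log2) of 8 myeloid genes in each tumor of lines 1, 31, 59 and 123; points are single tumors and bars are means. In the upper row line 1 tumors are high and line 31 tumor 3 is the one other tumor that comes near or reaches them; in the lower row all 3 line 1 tumors lie below the other 9.

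Osteoclasts form from the same precursors as macrophages, and several of their genes were higher in line 1 tumors. In a list of 14 measured osteoclast genes, chosen after the values had been seen, 7 were higher and 0 lower, with a median of 0.72. Higher genes made up 2.33% of all genes. The count of higher list members was 4 without line 1 tumor 1 and 3 without line 1 tumor 2. Atp6v0d2, a proton pump subunit of osteoclasts, was at 9.75, 8.69 and 8.85 in line 1 tumors, against 5.33 to 7.004 with a median of 6.15 (2.90 ± 0.29, adjusted p = 0.00015). Acp5, tartrate-resistant acid phosphatase, was at 8.04, 8.33 and 8.10, against 5.72 to 7.12 with a median of 6.10 (1.99 ± 0.23, adjusted p = 0.00048). Mmp9, a gelatinase of osteoclasts and neutrophils, was at 7.30, 7.70 and 7.27, against 4.90 to 6.55 with a median of 5.48 (1.77 ± 0.17, adjusted p = 0.00014). All line 1 tumors were above all others for these 3 genes.

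Ctsk, the collagen-degrading protease cathepsin K, was at 10.89, 10.50 and 10.53 in line 1 tumors and 8.20 to 9.88 in the others (1.63 ± 0.34, adjusted p = 0.017), and its call ended without any one line 1 tumor (adjusted p up to 0.077). The lineage regulators Nfatc1 (0.46, adjusted p = 0.2) and Tnfrsf11a (-0.12, adjusted p = 0.71), which encodes the receptor RANK, did not pass the test. Mmp8, the collagenase of neutrophils, was higher by 2.10 (adjusted p = 0.0042), at 5.93, 6.07 and 6.30 in line 1 tumors and 3.32 to 5.48 in the others, of which line 31 tumor 3 was the highest.

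Prostaglandin genes with increases included an enzyme and a receptor. In a list of 15 measured genes, again chosen after the values had been seen, 4 were higher and 1 lower. The shares among all genes were 2.33% and 2.29%. Ptges, the inducible synthase of prostaglandin E2, was at 7.16, 9.73 and 8.24 in line 1 tumors, against 5.60 to 6.18 with a median of 5.92 (2.43 ± 0.36, adjusted p = 0.0028). Ptgfr, the receptor for prostaglandin F2-alpha, was at 7.16, 7.59 and 8.0002, against 4.65 to 6.56 with a median of 5.19 (2.32 ± 0.31, adjusted p = 0.0014). Akr1c18, which reduces progesterone and prostaglandins, was at 6.76, 7.12 and 6.62, against 4.17 to 5.36 with a median of 4.71 (2.05 ± 0.16, adjusted p = 2.5e-05). The 3 genes were higher than in each single line. Ptgs2, the inducible cyclooxygenase, was at 9.21, 10.74 and 9.76 in line 1 tumors and 7.61 to 10.24 in the others, and passed the test (adjusted p = 0.0039) when line 31 tumor 3 was left out but not with all tumors (1.38, adjusted p = 0.13).

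Mesenchymal transcription factors were higher in part. Of 17 measured genes of the EMT and mesenchymal list 4 were higher and 0 lower, with a median of 0.50. Higher genes made up 2.33% of all genes. Foxc2, a forkhead factor of mesenchyme and lymphatic vessels, was at 7.47, 7.53 and 7.18 in line 1 tumors, against 4.73 to 5.18 with a median of 5.05, within the range of receptor genes (2.41 ± 0.13, adjusted p = 4.8e-07). Twist2, a bHLH factor of dermal mesenchyme, was at 7.01, 8.28 and 7.33, against 5.78 to 6.48 with a median of 6.20 (1.42 ± 0.21, adjusted p = 0.0027). Prrx1 was higher by 0.81 (adjusted p = 0.0053). Snai1 was higher by 0.67 (adjusted p = 0.032), a call that ended without any one of 7 tumors (adjusted p up to 0.18).

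Foxd1, a forkhead factor of kidney stroma and ventral forebrain, was at 6.51, 7.01 and 6.30 in line 1 tumors, against 4.31 to 4.95, within the range of receptor genes (1.98 ± 0.16, adjusted p = 4e-05). Hoxd8 was at 6.88, 6.70 and 6.69, against 5.30 to 6.07 with a median of 5.74 (1.11 ± 0.15, adjusted p = 0.0016), and it alone passed the test among 28 measured Hox genes. Stox2 was higher by 2.66 (adjusted p = 0.00013), with 9.06, 9.23 and 9.29 in line 1 tumors and 5.30 to 8.05 in the others. The other probe set of Stox2 gave 0.96. Foxd1 and Stox2 were named after their values had been seen.

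Of 40 measured receptor tyrosine kinases 4 were higher in line 1 tumors and 1 lower, with a median of 0.03. The shares among all genes were 2.33% and 2.29%. Without line 31 tumor 3 the counts of kinases were 5 and 3. Beside Tek and Pdgfra, Ret, the receptor for GDNF family ligands, was at 6.36, 8.23 and 7.61 in line 1 tumors, against 5.14 to 5.99 with a median of 5.52 (1.86 ± 0.31, adjusted p = 0.0055). The lower member, Mertk (-0.85, adjusted p = 0.042), lost its call without any one of 9 tumors (adjusted p up to 0.2). Met, the hepatocyte growth factor receptor, was at 9.81, 10.53 and 10.19 in line 1 tumors, within the 7.41 to 12.64 of the others. Egfr, Kit and Kdr differed by -0.14, 0.27 and 0.80 and did not pass the test.

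Among 32 measured growth factor ligands 2 were higher and 3 lower, against 5 and 4 without line 31 tumor 3 and 0 and 1 without line 1 tumor 3. Higher and lower genes made up 2.33% and 2.29% of all genes. Nrg1, a ligand of ErbB receptors, was at 5.91, 6.29 and 5.65 in line 1 tumors, against 6.57 to 7.41 with a median of 6.88 (-1.02 ± 0.15, adjusted p = 0.0029). Vegfc (-1.26, adjusted p = 0.015) and Fgf2 (-1.21, adjusted p = 0.015) were lower with separate ranges, and both calls ended without line 1 tumor 3 (adjusted p = 0.099 and 0.11), that of Vegfc also without line 1 tumor 2 (adjusted p = 0.084). Ereg, an EGF receptor ligand, was higher by 1.57 (adjusted p = 0.035), and its call ended without any one of 8 tumors (adjusted p up to 0.17). Targets of MAPK signalling were mixed, with 1 of 18 higher and 2 lower: Spry2, a feedback inhibitor, was higher by 1.06 (adjusted p = 0.0038) and Egr1 lower by 0.96 (adjusted p = 0.016), with ranges that did not overlap for either gene. The call of Egr1 ended without line 1 tumor 2 or tumor 3 (adjusted p = 0.084 and 0.11).

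Ccnd1, which encodes cyclin D1, was the other lower gene of that list, at 6.91, 7.02 and 7.34 in line 1 tumors, against 7.30 to 9.78 with a median of 8.63 (-1.49 ± 0.24, adjusted p = 0.0042). It counts among 5 lower genes of 18 in the list of D cyclins, INK4 genes and glioma suppressors, beside Cdkn2a and Cdkn2b, and no member was higher. The count of 5 was 3 without line 1 tumor 2 or tumor 3, 2 without line 123 and 1 with the line as a random block. The call of Ccnd1 ended with the line as a random block (adjusted p = 0.085), with 2 groups and no line term (0.061) and without line 123 (0.058). Of 29 measured cell cycle genes only Mcm4, a subunit of the replicative helicase on chromosome 16, was called, at 8.41, 8.37 and 8.42 in line 1 tumors and 6.98 to 8.07 in the others (1.01 ± 0.19, adjusted p = 0.0093). Its call ended without line 1 tumor 3 (adjusted p = 0.057). At an unadjusted p under 0.05 there were 10 of the 29 genes, and without line 31 tumor 3 the list had 7 called members, all higher. Mki67, the proliferation marker, differed by 0.10 (adjusted p = 0.84). Of 23 measured p53 targets 1 was higher and 1 lower (4 lower without line 31 tumor 3), with a median of -0.20, and Mdm2 differed by -0.23 (adjusted p = 0.42).

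Every called gene of the neuron and neural stem cell lists was lower in line 1 tumors. The share of lower genes among all genes was 2.29%. Of 21 measured neuron genes 3 were lower and 0 higher, with a median of 0.04. The lower neuron genes numbered 1 without line 123, 1 with the line as a random block and 1 with 2 groups and no line term. Stmn2, a stathmin of growing axons, was at 5.70, 4.66 and 5.01 in line 1 tumors, 5.51, 5.51 and 6.07 in line 31 tumors, 9.70, 6.89 and 7.76 in line 59 tumors and 10.23, 9.90 and 11.42 in line 123 tumors. It was lower than in lines 59 and 123 (adjusted p = 0.016 and 0.00043) and not called against line 31 (adjusted p = 0.72). The Stmn2 call against the other tumors ended without line 123 (-1.78, adjusted p = 0.11). Of 18 measured genes of neural stem and progenitor cells 2 were lower: Cd24a, a surface glycoprotein (-2.16, adjusted p = 0.00014), and Sox2, the stem cell factor (-1.61, adjusted p = 0.026), at 4.54, 4.84 and 4.06 in line 1 tumors and 3.99 to 7.66 in the others. Both overlapped with line 31 tumors. With the line as a random block, or with 2 groups and no line term, neither was called, and Cd24a had an adjusted p of 0.18 and 0.15. The Sox2 call ended without any one line 1 tumor (adjusted p up to 0.15). Sparcl1, a matrix protein of astrocytes and vessels, was higher, at 10.52, 11.12 and 10.65 in line 1 tumors and 8.90 to 9.98 in the others (1.23 ± 0.14, adjusted p = 0.00037).

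Some genes of host and stromal lists were called. The share of higher genes among all genes was 2.33%. Of 18 measured endothelial genes 3 were higher, Tek among them, with a median of 0.34 and a mean level of 6.58 to 6.73 in line 1 tumors, against 5.87 to 6.21 in the others. Tek also belongs to the raised stretch on chromosome 4, and the mean level includes it. The 15 uncalled members differed by 0.03 to 1.02, and 15 of the 18 had an unadjusted p under 0.05. The count of called members was 1 without any one of the line 1 tumors and 6 without line 31 tumor 3. The other called members were Pecam1 (0.68, adjusted p = 0.042) and Mmrn2 (0.51, adjusted p = 0.017). Both calls ended without any one line 1 tumor, that of Pecam1 without any one of 10 tumors (adjusted p up to 0.15). Of 18 measured fibroblast genes 3 were higher (1 without line 1 tumor 3, 6 without line 31 tumor 3), including Pdgfra and Fap (1.23, adjusted p = 0.027), a protease of reactive fibroblasts, whose call ended without line 1 tumor 1 or tumor 3 (adjusted p = 0.11 and 0.13). Cthrc1, a secreted collagen triple helix protein, was at 11.04, 11.22 and 10.96 in line 1 tumors, against 7.60 to 10.87 with a median of 8.89 (2.23 ± 0.38, adjusted p = 0.0061). It was named after its values had been seen. Thbd, thrombomodulin, was higher by 1.18 (adjusted p = 0.0028) with separate ranges. No gene of the lymphocyte, adipocyte, skeletal muscle, keratinocyte, interferon, hypoxia or cholesterol lists was called by limma. At an unadjusted p under 0.05 the same test gave 0 of 15 lymphocyte genes, 1 of 15 adipocyte genes, 6 of 20 muscle genes and 6 of 16 keratinocyte genes. It gave 3 of 20 interferon genes, 3 of 19 hypoxia genes and 5 of 19 cholesterol genes. The share of all genes at that unadjusted threshold was not counted. These counts and the unadjusted counts of other lists therefore have no background beside them.

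**Figure D4:**
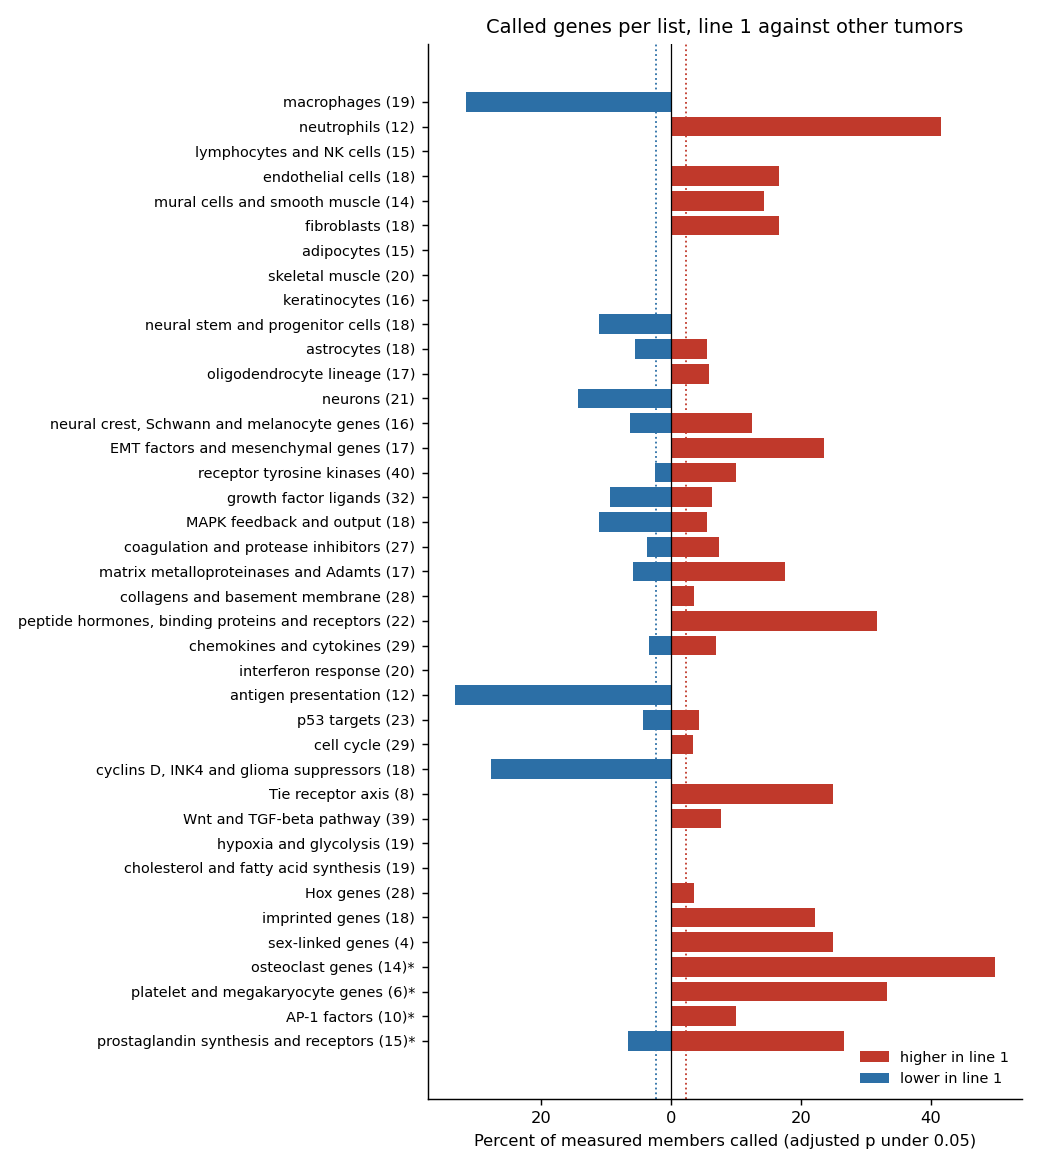
Percent of the measured members of each gene list that were higher (red) or lower (blue) in line 1 tumors than in the other tumors, with the number of measured members in brackets; dotted lines mark 2.33% and 2.29%, the shares among all genes, and asterisks mark lists chosen after the values had been seen. Osteoclast, neutrophil and platelet lists reach furthest to the right, followed by the peptide list, while macrophage and antigen presentation lists reach furthest to the left.

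The noncoding RNAs Rian and Meg3 of the imprinted Dlk1-Dio3 region were both higher in line 1 tumors. Rian was at 7.56, 7.55 and 7.504, against 4.26 to 5.42 with a median of 5.25 (2.55 ± 0.22, adjusted p = 4.9e-05). Meg3 was at 7.37, 8.45 and 7.94, against 5.78 to 6.53 with a median of 6.39 (1.63 ± 0.20, adjusted p = 0.00082). Both were separate from all other tumors. Rian was named after its values had been seen. Of 18 measured imprinted genes, a list that includes Meg3 but not Rian, 4 were higher and 0 lower, and 1 was higher without line 1 tumor 3. The other 3 were Mest (1.56, adjusted p = 0.017), Igf2r (1.04, adjusted p = 0.019) and Sgce (0.67, adjusted p = 0.016), which overlapped with other lines and lost their calls without line 1 tumor 3 (adjusted p = 0.12, 0.066 and 0.099). The difference of Sgce came from line 31, where it was lower than in line 1 by 2.51, and it was -0.25 without that line.

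Slit2, a guidance ligand of axons and vessels, hosts the microRNA gene Mir218-1 in an intron on chromosome 5, and both were lower in line 1 tumors. Slit2 was at 7.20, 7.44 and 7.31, against 7.88 to 9.43 with a median of 8.69 (-1.34 ± 0.15, adjusted p = 0.00048). Mir218-1 was at 5.01, 5.06 and 4.95, against 6.14 to 7.70 with a median of 6.32 (-1.68 ± 0.25, adjusted p = 0.0029). The line 1 mean of Mir218-1 lay within the range of receptor genes. Slit2 and Mir218-1 were named after their values had been seen. The probe set reports RNA that holds the microRNA precursor, not the mature microRNA. The mature 5p sequence from RefSeq (GRCm38.p6, chr5:48223966-48223986, plus strand) is given because its seed, bases 2 to 8 in capitals, defines the targets; a target test was not made.
mmu-miR-218-5p: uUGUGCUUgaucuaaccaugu

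Line 123 is the other tumor line labelled WT, so line 1 against line 123 compares lines that do not differ in the p53 label. Of the 617 genes that differed, 268 were higher in line 1 tumors (1.34%) and 349 lower (1.75%). Xist, the RNA that coats the inactive X chromosome, had the largest increase: it was at 10.05, 9.63 and 10.13 in line 1 tumors, against 4.56, 3.77 and 4.33 in line 123 tumors (5.72, adjusted p = 2.1e-06). Line 31 and line 59 tumors had 8.34 to 9.85, and without line 123 the difference of line 1 to the others was 0.74 and not called (adjusted p = 0.28). The next increases were Tfpi2 (4.44), Caap1 (3.98), Crhbp (3.94), Tek (3.82) and Tm2d1 (3.80), the same genes that led the comparison with all 9 tumors.

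Kcnma1, the large-conductance calcium-activated potassium channel, had the largest decrease against line 123. It was at 4.45, 4.27 and 3.22 in line 1 tumors, against 12.23, 7.53 and 13.00 in line 123 tumors (-6.94, adjusted p = 0.0069). Line 31 tumors were as low as line 1 in tumors 1 and 2 (4.36 and 4.38), and line 59 tumors were at 11.03, 12.62 and 13.13. The other probe set of Kcnma1 differed by 0.33 between line 1 and the other tumors, so the decrease holds for one probe set only. In the comparison with all 9 tumors the Kcnma1 call ended without line 1 tumor 3 (adjusted p = 0.052). The next were Stmn2 (-5.39, adjusted p = 0.00043), the olfactory receptor pseudogene Olfr1372-ps1 (-3.90, adjusted p = 0.0002) and Efemp1, a fibulin of the matrix (-3.53, adjusted p = 0.034). Cldn1 (-3.43, adjusted p = 0.00089) and Cd24a (-3.38, adjusted p = 2.1e-05) came after them.

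By chromosome, the X chromosome had the highest share of lower genes: 60 of 742 measured genes (8.09%) were lower in line 1 tumors and 7 (0.943%) higher. Of these 742 genes, 23 were lower and 3 higher against line 31, 38 lower and 4 higher against line 59, and 47 lower and 3 higher against line 123. Among all genes 1.51%, 1.73% and 1.75% were lower in those contrasts. Genes on the Y chromosome did not separate line 1: Eif2s3y and Kdm5d differed by -0.34 and -0.35 and did not pass the test (adjusted p = 0.68 and 0.63). Chromosome 14 had 55 of 702 genes (7.83%) higher and chromosome 16 38 of 649 (5.86%). Of the chromosome 14 genes 53 were higher than in line 31, 21 than in line 59 and 32 than in line 123, while chromosome 16 gave 10, 53 and 22. Among all genes 1.70%, 1.55% and 1.34% were higher in those contrasts. Lower genes numbered 3, 10 and 10 on chromosome 14 and 18, 4 and 4 on chromosome 16. Against line 31, chromosome 16 thus had more lower than higher genes. Chromosome 4, with the stretch around Tek, had 24 of 1160 genes (2.07%) higher in all, 14 of them in that stretch.

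A pair of shorter runs of neighbouring genes was called together. On chromosome 17, Slc25a27, Cyp39a1, Rcan2, Enpp5 and Enpp4 were lower by 1.00 to 1.37. On chromosome 14, Spcs1, Glt8d1, Gnl3 and Pbrm1 were higher by 0.52 to 0.79. Enpp5 (-1.37, adjusted p = 0.0051) and Gnl3, which encodes nucleostemin (0.72, adjusted p = 0.0058), kept their calls whichever tumor was left out. The call of each other gene in the 2 runs ended without line 1 tumor 3 (adjusted p between 0.073 and 0.15).

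**Figure D5:**
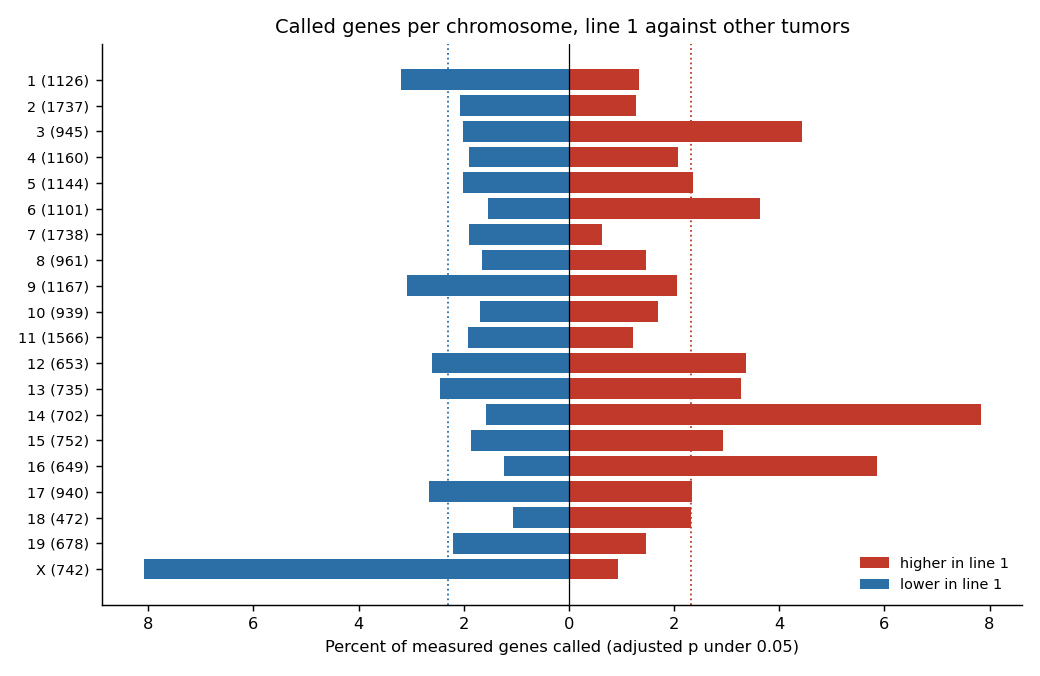
Percent of measured genes per chromosome that were higher (red) or lower (blue) in line 1 tumors than in the other tumors, with the number of measured genes in brackets; dotted lines mark the shares among all genes, 2.33% and 2.29%. The X chromosome stands out on the lower side with 8.09%, chromosomes 14 and 16 on the higher side with 7.83% and 5.86%. Against line 31 alone, chromosome 16 had 10 higher and 18 lower genes.

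The 3 line 1 tumors also differed among themselves, with several genes of adipose tissue among the widest ranges. The 6 widest ranges belonged to Car3, Cd36, Ibsp, Cyp2e1, Adipoq and Cxcl13. Adipoq, the hormone adiponectin, was at 8.04, 4.42 and 4.12 in line 1 tumors, against 4.07 to 5.43 in the others and 7.01 on average in SubQ samples. Car3, a carbonic anhydrase of fat and muscle, was at 9.86, 4.72 and 7.38, and Cd36, a fatty acid transporter, at 9.66, 5.29 and 7.06. Line 1 tumor 1 was the highest for 5 of the 6 genes. The mean level over the 15 adipocyte genes was 6.53 in line 1 tumor 1, 5.21 and 5.63 in tumors 2 and 3, 5.16 to 5.85 in the other lines and 6.85 to 6.98 in SubQ samples. Ibsp, bone sialoprotein, ran the other way, at 4.89, 8.67 and 4.37. None of the 6 genes was called. Without line 1 tumor 1 there were 907 calls, of which 646 were among the 922.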

How the data were processed

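Whole-genome Affymetrix expression arrays were made from 27 mouse samples, of which 12 tumors entered the comparison. The deposited values are log2 expression levels made by the authors, and the submitters' processing notes name RMA, GCOS and Affymetrix Expression Console. The genome build and the annotation they used are not given in the sources used here. No further normalization was applied. Probe sets listed with one gene were kept, and for each gene the one with the highest mean over all 27 arrays was used.

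A linear model with one mean per tumor line was fitted to the 12 tumors with limma 3.58.1 in R 4.3.3, after a test on simulated data. The main contrast was line 1 minus the mean of lines 31, 59 and 123. Benjamini-Hochberg adjusted p-values over 19937 genes were called under 0.05. The labels call the tumors of a line biological replicates, and nothing says whether they came from separate mice, so the p-values speak only of how far these arrays scatter, which may be technical. The number of arrays limits the precision.

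The comparison, its genes and the gene lists were chosen with earlier results of these data known. Genes were named by a rule: the 12 largest increases and decreases among genes called and not overlapping, 6 in each direction against line 123, the 6 widest ranges within line 1, the given markers, 9 genes of prior interest (Cdkn2a, Cdkn2b, Mtap, Mdm2, Met, Egfr, Kit, Kdr and Mki67), up to 4 called members of each list and the genes of the 3 longest runs of neighbouring genes, passing over provisional symbols. Further genes, and the osteoclast, platelet, AP-1 and prostaglandin lists, were added after their values had been seen. Promoter and microRNA sequences are from RefSeq (GRCm38.p6).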

Additional observations from a re-analysis of the deposited data

Results flagged for a closer look

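Among the 9 tumors of lines 31, 59 and 123, single tumors stood far from the others for 11 of the 110 called genes named. Chance trips the gap test used in about 1 in 20 groups. That rate is for samples of a single kind, while these tumors came from 3 lines. Line 31 tumor 3 was the outlying tumor for 9 of the 11 genes. It was the highest of the 9 for Ppbp (6.77), S100a9 (9.19), Cxcr2 (7.72), S100a8 (7.88), Cxcl2 (6.90), Cxcl3 (6.22), Mmp8 (5.48) and Pf4 (8.40), and the lowest for Mertk (6.24). Line 123 tumor 3 was the highest for Cdkn2a, at 6.40. Line 59 tumor 1 was the highest for Cyp39a1, at 8.17.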

How the results depend on the processing

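The count of 922 genes against the other 9 tumors was 335 with the line as a random block, 555 with 2 groups and no line term, 578 without line 59, 522 without line 123 and 339 at a difference of at least 2-fold. At 2-fold the counts were 364 against line 31, 384 against line 59, 350 against line 123 and 100 against each of the 3 lines. With one tumor left out at a time, the counts ranged from 329 to 1388 against all 9 tumors, from 201 to 1139 against line 31, from 287 to 981 against line 59, from 229 to 993 against line 123 and from 82 to 299 against each line. The lowest of these belonged to fits without line 1 tumor 3 (329, 287 and 82), line 31 tumor 1 (201) and line 123 tumor 3 (229). All 5 highest were without line 31 tumor 3. The cause was not tested. The mean of all probe sets, the filter on low levels, a trended and robust fit, quantile normalization, the fit over all 27 arrays and the fit without line 31 left the count against all 9 tumors within 1.5 times.

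With the replicate number as a block, 874 genes were called against all 9 tumors, 552 against line 31, 619 against line 59, 553 against line 123 and 148 against each line. Same-numbered tumors of different lines did not deviate together (18 correlations of -0.282 to 0.335), so the numbers do not pair the samples.

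Of 110 called genes named here, 56 were called under every alternative run and 1, Sgce, changed direction (-0.25 without line 31). With the line as a random block 39 of the 110 lost their call: Gabre, Timp3, Penk, Xist, Kcnma1, Stmn2, Olfr1372-ps1, Cd24a, Cdkn2b, C1qb, Adgre1, S100a9, S100a8, Pecam1, Fap, Sox2, Prrx1, Snai1, Mertk, Ereg, Vegfc, Fgf2, Ccnd1, Igfbp5, Igfbp4, H2-Eb1, Mest, Igf2r, Sgce, Fggy, Slc25a27, Cyp39a1, Rcan2, Enpp4, Glt8d1, Pbrm1, Cyp2j11, Cthrc1 and Pf4. The number was 27 with 2 groups and no line term, 23 without line 59, 21 without line 123 and 20 in the fit over all 27 arrays. Among uncalled genes, the difference changed sign when single tumors were left out, with ranges of -0.74 to 1.83 for Car3, -0.18 to 1.96 for Cyp2e1, -0.30 to 1.66 for Adipoq and -0.77 to 1.10 for Cxcl13, all turned by line 1 tumor 1. It ranged from -0.48 to 0.28 for Met, where line 1 tumor 1 (0.0059), line 31 tumor 3 and line 59 tumor 2 (0.15) turned it, and without line 123 it was 0.53. The ranges were -0.38 to 0.14 for Egfr and -0.25 to 0.025 for Tnfrsf11a, turned by line 1 tumor 2.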
